A study of Mus musculus with 5 samples.

Results

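The D-type cyclin genes Ccnd1, Ccnd2 and Ccnd3, the kinase genes Cdk4 and Cdk6 and the pocket protein genes Rb1, Rbl1 and Rbl2 were followed in mouse mammary gland after induction of a cyclin D1 transgene. They were chosen by name, with earlier results of these data known. Each of the 8 genes had 1 probe set that the platform annotation gives to that gene alone, so 8 of the 21789 probe sets with 1 gene symbol were described. Glands came from FvB/N females at 8 weeks of age: 3 bi-transgenic mice that carried rtTA and cyclin D1 (labelled rtTA/CCND1) and 2 control mice that carried rtTA only. Total RNA of the whole gland from each mouse was hybridised to 1 Affymetrix whole-transcript array, and all values are log2 expression per probe set.

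rtTA is a transactivator that turns on a responder transgene when doxycycline is present, and here it was driven by MMTV, a mouse mammary tumour virus promoter that is active in mammary epithelium. Every animal therefore carried MMTV-rtTA. Doxycycline was given for 7 days per the labels, which state this for mice with a KE mutant of CCND1; no sample title names that mutant, and treatment of the control mice is not stated. The study's title asks what acute cyclin D1 expression does in the gland.

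D-type cyclins are made in response to growth signals and activate CDK4 and CDK6 in G1. The active kinases phosphorylate the pocket proteins pRB (Rb1), p107 (Rbl1) and p130 (Rbl2), which otherwise hold E2F transcription factors and keep S phase genes off. In the mammary gland, mice without cyclin D1 form few alveoli in pregnancy.

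The arrays of the groups differed in their range. The SD over all 21789 probe sets was 1.27 to 1.46 on the 3 cyclin D1 arrays, against 0.772 on control 1 and 0.984 on control 2, and 1932 to 2533 probe sets lay above a log2 value of 5, against 429 and 934. When probe sets were divided into 10 deciles by their mean over the arrays, the median log2 difference (cyclin D1 minus control) was 1.66 in the brightest decile, but -0.29 in the dimmest. RMA, the method behind the deposited values, gives nearly equal ranges to arrays that are normalized together, but no label states that these 5 arrays were run through it as 1 set. Differences are therefore also given after the 5 arrays were quantile-normalized again, which makes their ranges equal and is called renormalized. With these renormalized values the medians of the brightest and the dimmest decile were 0.32 and -0.07. Across probe sets, Pearson's r was 0.957 to 0.965 between cyclin D1 arrays and 0.793 between the controls. Control 2 correlated more closely with the cyclin D1 arrays (0.85 to 0.891) than with control 1, and control 1 correlated with the cyclin D1 arrays at 0.716 to 0.757.

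Among the 8 genes Rb1 was higher in cyclin D1 glands and the other 7 did not pass the test. All 8 had a positive difference on the deposited scale, with a median of 0.46 against -0.04 over all probe sets, and 5 of 8 had one after renormalization, with a median of 0.12 against -0.02. The 8 genes lie in deciles 7, 8, 9 and 10 of mean expression, where the deposited medians of all probe sets were 0.04, 0.21, 0.76 and 1.66. In all, 6.55% of probe sets passed in either direction (1428 of 21789, limma with Benjamini-Hochberg adjustment, threshold 0.05), 5.8% as higher and 0.753% as lower, so 1 of 8 is near the share of the whole array. After renormalization 0 of the 8 passed, where 0.643% of all probe sets did. At an unadjusted p under 0.05 limma gave 2 of the 8, Rb1 and Rbl1, on either scale, beside 26.9% of all probe sets as deposited and 19.1% after renormalization. In RNA of a whole gland, fewer cells of a type and less RNA per cell cannot be told apart.

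**Figure D1:**
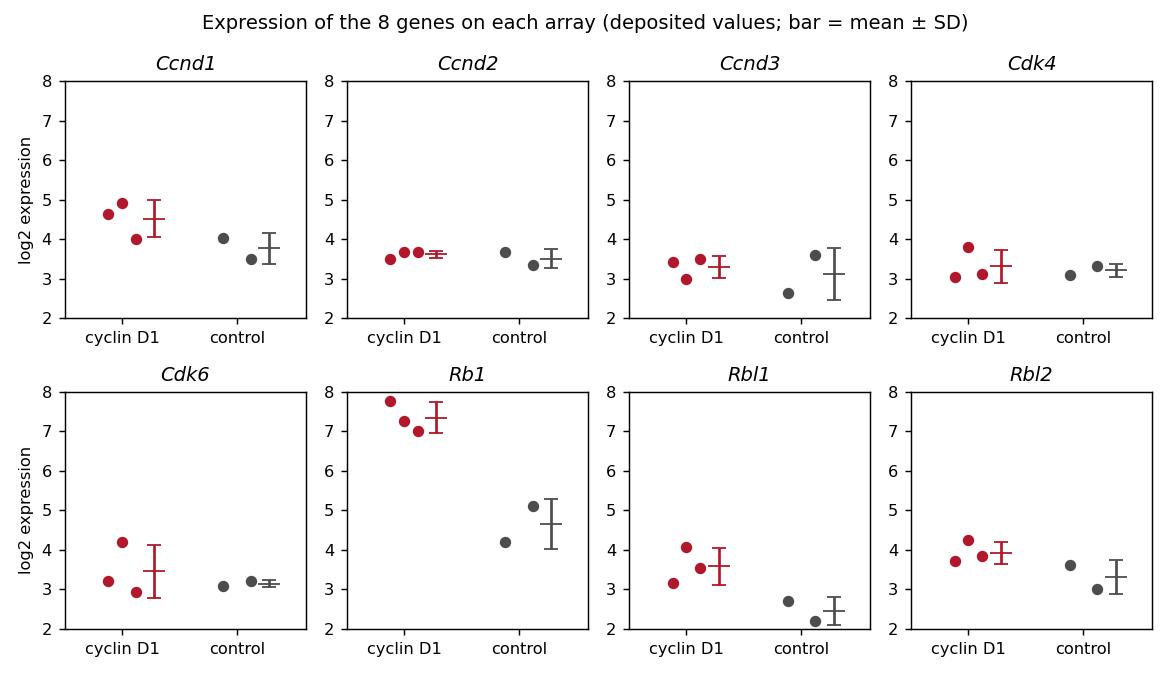
Log2 expression (y axis) of each of the 8 genes on the 3 cyclin D1 arrays and the 2 control arrays; each point is 1 mouse and the bar is the mean ± SD. Rb1 lies at 7.0 or above on every cyclin D1 array and at 5.11 or below in both controls, whereas the groups overlap for the 3 cyclins and the 2 kinases.

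The cyclins are described first, since the transgene is labelled cyclin D1, the protein that Ccnd1 encodes. Ccnd1 (probe set 10569646) stood at 4.63, 4.92 and 4.0 in cyclin D1 replicates 1, 2 and 3, against 4.04 and 3.49 in controls 1 and 2. The groups overlapped, because control 1 lay above cyclin D1 replicate 3. The difference of 0.75 (SE 0.33, 95% confidence interval -0.07 to 1.58) did not pass (limma adjusted p = 0.217), and the median difference among probe sets of the same decile of mean expression, decile 9, was 0.76. After renormalization the values were 4.28, 4.38 and 3.92 in cyclin D1 glands, against 5.08 and 3.62 in controls, a difference of -0.16 with an interval of -1.28 to 0.96. Within its own array Ccnd1 ranked at percentile 86.9, 87.9 and 82.5 of all probe sets in cyclin D1 glands, against 93.1 in control 1, above every cyclin D1 array, and 77.7 in control 2, below them. Whether this probe set reads the transgene's transcript is not stated in the labels or the annotation, so it is no check of the genotype labels.

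Ccnd2, the D-type cyclin known for its role in ovary and lymphocytes, had 3.51, 3.67 and 3.67 in cyclin D1 glands, against 3.67 and 3.34 in controls. It was the steadiest of the 3 cyclins, and its difference of 0.11 had an interval of -0.3 to 0.52 (limma adjusted p = 0.687). Renormalization turned the sign, to -0.33 with an interval of -1.04 to 0.38. Ccnd3, which is prominent in lymphocytes and muscle, stood at 3.42, 2.99 and 3.51 in cyclin D1 glands, against 2.65 and 3.59 in controls, so the controls lay on either side of all 3 cyclin D1 values. Its difference was 0.18 (interval -0.65 to 1.01, limma adjusted p = 0.741) and 0.1 after renormalization. In control 1 Ccnd3 stood 0.13 above the mean of the 1035 olfactory receptor probe sets, which served as a rough floor since a gland should hardly express those genes.

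The kinase genes showed no difference beyond the spread between mice. Cdk4 stood at 3.03, 3.79 and 3.12 in cyclin D1 glands, against 3.09 and 3.33 in controls. Its difference of 0.1 (interval -0.58 to 0.78, limma adjusted p = 0.827) became -0.04 after renormalization. Cdk6 stood at 3.22, 4.2 and 2.94 in cyclin D1 glands, against 3.08 and 3.21 in controls. Its difference was 0.31 (interval -0.68 to 1.29, limma adjusted p = 0.639), or 0.13 after renormalization. For both kinases cyclin D1 replicate 2 was the highest array, and without it their differences were -0.14 and -0.07.

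Cyclin D1 replicate 2 was the highest of the 3 cyclin D1 arrays for 6 of the 8 genes: Ccnd1, Ccnd2, Cdk4, Cdk6, Rbl1 and Rbl2. The share of all probe sets highest on replicate 2 was not computed, so this count is not read as a trait of these genes. Replicate 2 also had the widest range of the 3, with an SD of 1.46 against 1.4 and 1.27. For Ccnd2 replicates 2 and 3 were level at 2 decimals, and after renormalization replicate 3 was the higher, at 3.59 beside 3.5. Replicate 2 had the highest mean over 4 measured genes of dividing cells (5.47, against 4.25 and 4.88 on the other cyclin D1 arrays) and over 6 lymphocyte genes (3.68, against 2.84 and 2.91). It was also highest for milk genes (10.68, against 10.2 and 9.98) and myoepithelial genes (4.75, against 4.5 and 4.26). Its mean was lowest over 5 adipocyte genes (5.01, against 6.3 and 5.92) and over fibroblast genes (4.54, against 5.23 and 4.85). Skeletal muscle and red blood cell genes were lowest there too. For the remaining marker lists it lay between the other cyclin D1 arrays. The part of these cell types in the values of the 8 genes was not tested.

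Among the pocket protein genes, Rb1 and Rbl1 had the 2 largest differences of the 8 genes. Rb1 (probe set 10421526) encodes pRB, the main brake on E2F1 to E2F3. Its log2 expression was 7.77, 7.27 and 7.0 in cyclin D1 replicates 1, 2 and 3, against 4.21 and 5.11 in controls 1 and 2. The groups stood apart by more than the spread within either of them. Rb1 averaged 7.35 ± 0.388 (SD, n = 3) in cyclin D1 glands and 4.66 ± 0.635 (SD, n = 2) in controls, a 6.44-fold rise, or a log2 difference of 2.69 with an interval of 1.8 to 3.58 (SE 0.35, limma adjusted p = 0.0232).

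Scale decided how large this difference was. In its decile of mean expression, the brightest, the median difference was 1.66, 35.8% of probe sets passed as higher and 82.8% had all cyclin D1 values above both controls. Renormalized, Rb1 stood at 6.92, 6.38 and 6.54 in cyclin D1 glands, against 5.4 and 5.77 in controls. The groups still did not overlap, but the difference was 1.03 (SE 0.22, interval 0.47 to 1.59) and did not pass (limma adjusted p = 0.0976). Its percentile was 98.5, 97.7 and 98 on the cyclin D1 arrays, against 94.7 and 96.2 in controls. On the deposited scale the call was also lost when cyclin D1 replicate 1, 2 or 3 or control 1 was left out, with differences of 2.48, 2.73, 2.86 and 2.24, and kept without control 2, with 3.14. It was lost too when arrays were weighted by their residual spread, at 2.82 with a limma adjusted p = 0.0561. The difference of Rb1 was positive in all 19 alternative settings, from 0.85 to 3.14, all of which reuse the same 5 arrays.

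Rbl1 (probe set 10489127) encodes p107, which is itself a known E2F target and is made as cells enter S phase. It stood at 3.15, 4.08 and 3.53 in cyclin D1 glands, against 2.7 and 2.21 in controls, with no overlap. The difference of 1.13 (SE 0.32, interval 0.33 to 1.93) did not pass over all probe sets (limma adjusted p = 0.0995). Control 2 lay 0.17 below the olfactory receptor mean of its array, so the size is inexact; with that mean in its place the difference was 1.04. Unlike Rb1, whose difference shrank to 1.03, Rbl1 kept its size after renormalization, at 1.1 (interval 0.45 to 1.75, limma adjusted p = 0.112). The median of its decile, decile 7, also moved little, from 0.04 to -0.04. It had the same sign in all 19 alternative settings, from 0.88 to 1.44, and passed in none of them.

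Rbl2 encodes p130, the pocket protein that goes with E2F4 in resting cells. Its values were 3.71, 4.24 and 3.84 in cyclin D1 glands, against 3.62 and 3.0 in controls, so the groups did not overlap but cyclin D1 replicate 1 and control 1 lay close together. The difference was 0.62 (SE 0.26, interval -0.04 to 1.27, limma adjusted p = 0.206), and after renormalization 0.18 (interval -0.74 to 1.09), with control 1 at 4.17 above all 3 cyclin D1 arrays. All cyclin D1 values lay above both controls for these 3 of the 8 genes, against 23.3% of all probe sets, and after renormalization for 2 of 8, Rb1 and Rbl1, against 20.3%. In deciles 7, 8, 9 and 10, which hold the 8 genes, the deposited shares were 20.5%, 35.7%, 62.1% and 82.8%. After renormalization they were 18.4%, 21.6%, 30.1% and 32.6%, so these counts are not read as an excess.

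The upstream sequences of Rbl1 and Rbl2 are shown because p107 is a known E2F target and p130 a partner of E2F4; their relation to expression was not tested. RefSeq promoter entries (GRCm38.p6) matched 5 of the 8 genes: Ccnd3, Cdk4, Cdk6, Rbl1 and Rbl2. The 250 bases before the annotated start were searched on both strands for 4 spellings of the E2F word, TTTCGCGC, TTTGGCGC, TTTCCCGC and TTTGCCGC, which 1.86% of 32851 promoter entries hold. Rbl1 had 1 such word, TTTCGCGC, at 18 to 11 bases before the start, and no spelling was found in the entries of the other 4 genes. Both pocket gene sequences are shown 5′ to 3′ along the gene's strand, with the word in capitals. That of Rbl1 lies on the minus strand at chr2:157204535-157204784 and that of Rbl2 on the plus strand at chr8:91069807-91070056.
Rbl1: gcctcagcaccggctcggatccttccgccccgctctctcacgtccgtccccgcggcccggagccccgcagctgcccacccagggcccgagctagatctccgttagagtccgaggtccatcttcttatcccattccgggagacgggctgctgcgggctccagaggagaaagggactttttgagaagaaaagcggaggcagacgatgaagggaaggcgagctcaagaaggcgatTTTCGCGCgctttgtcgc
Rbl2: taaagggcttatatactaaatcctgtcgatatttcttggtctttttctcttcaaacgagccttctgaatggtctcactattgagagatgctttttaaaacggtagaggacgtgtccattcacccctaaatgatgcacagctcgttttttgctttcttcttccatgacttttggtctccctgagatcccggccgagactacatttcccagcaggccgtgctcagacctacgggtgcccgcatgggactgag

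A match describes letters in this window and shows no binding. Of 14 S phase genes known as E2F targets with a promoter entry, 5 held a spelling of the word (Cdc6, Mcm5, Mcm6, Mcm7 and Pola1). Of these, Mcm6 and Pola1 rose, with values given among the S phase genes, while Mcm5, Mcm7 and Cdc6 had differences of -0.18, -0.33 and -0.23, or -0.28, -0.3 and -0.24 after renormalization, that did not pass.

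**Figure D2:**
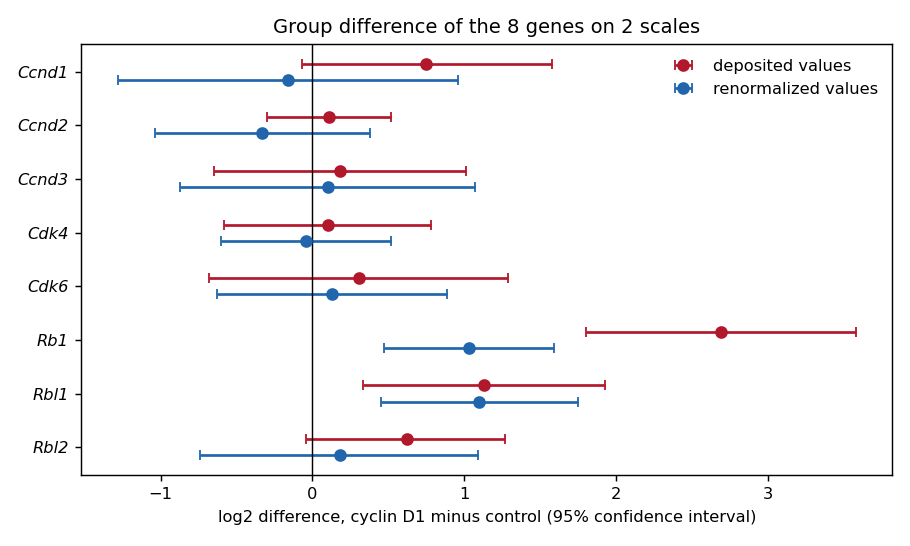
Log2 difference, cyclin D1 minus control (x axis), of the 8 genes with its 95% confidence interval from limma, for deposited values in red and renormalized values in blue. The intervals of Rb1 and Rbl1 lie above 0 on both scales, that of Ccnd1 spans 0 on both, and Rb1 moves from 2.69 to 1.03 between the scales.

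Differences between relatives were tested as the change in their log2 ratio within each array, for 7 pairs. The ratio of Rb1 to Rbl2 was 4.06, 3.03 and 3.17 on the log2 scale in cyclin D1 glands, against 0.59 and 2.11 in controls, a change of 2.07, or 0.85 after renormalization. That of Rb1 to Rbl1 changed by 1.56 on the deposited scale and by -0.07 after renormalization. Permutation tests were run on the deposited ratios only. Both deposited changes had an exact two-sided permutation p = 0.1, the smallest that 3 against 2 mice allow. It was 0.35 after Benjamini-Hochberg adjustment over the 7 pairs. The ratio of Rbl1 to Rbl2 changed by 0.51 on the deposited scale, with an exact two-sided permutation p = 0.2 (0.467 after adjustment). After renormalization it changed by 0.92, which was not tested. Among the cyclins and kinases the changes were between -0.2 (Cdk4 to Cdk6) and 0.64 (Ccnd1 to Ccnd2), with exact two-sided permutation p of 0.3 to 1, and after renormalization between -0.43 (Ccnd2 to Ccnd3) and 0.17 (Ccnd1 to Ccnd2).

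**Figure D3:**
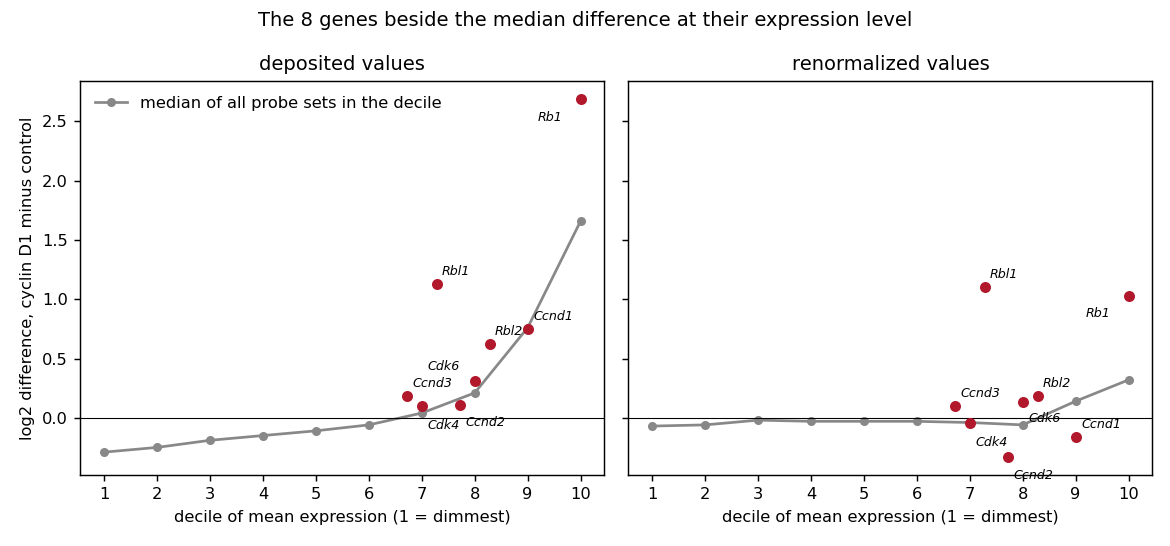
Log2 difference, cyclin D1 minus control (y axis), of the 8 genes (red points) by decile of mean deposited expression (x axis), with the median of all probe sets in each decile in grey, for deposited values on the left and renormalized values on the right. Ccnd1 lies on the median of its decile in the left panel (0.75 against 0.76). Ccnd3, Cdk6, Rb1, Rbl1 and Rbl2 lie above theirs in both panels. Points in the same decile are spread sideways.

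The rest of the pathway was read from 8 lists with 66 measured genes, of which 7 rose and 1 fell. That is 12.1% of them, beside the 6.55% of all probe sets, with a median difference of 0.44. Many of the listed genes are bright, and the share of probe sets passing as higher rises with expression. It was 4.04% in decile 8, 16.7% in decile 9 and 35.8% in the brightest, where the median differences were 0.21, 0.76 and 1.66. No share matched for expression was computed, so 12.1% is not read as an excess. After renormalization the median was 0.21 and 0 passed, with 20 of 66 at an unadjusted p under 0.05 in limma, beside 19.1% of all probe sets. The 8 that passed are described in turn from the inhibitors to the S phase genes.

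Of 6 measured CDK inhibitor genes 1 fell and 0 rose. Cdkn2d encodes p19INK4d, which binds CDK4 and CDK6 and keeps D-type cyclins off them. It stood at 2.38, 2.45 and 2.4 in cyclin D1 glands, against 3.36 and 3.18 in controls, and fell by 0.86 (log2, SE 0.13; limma adjusted p = 0.0315). The groups did not overlap on either scale. Renormalized, its difference was -0.94 (limma adjusted p = 0.0784), so the size was similar and the call was lost. In cyclin D1 glands Cdkn2d stood only 0.35, 0.48 and 0.17 above the olfactory receptor mean, and in controls 0.83 and 0.8 above it. That mean was itself lower on the cyclin D1 arrays, at 2.03, 1.96 and 2.23, against 2.52 and 2.38 in controls. Renormalized, it was 2.12, 2.11 and 2.22, against 2.47 and 2.32. The size of the fall is therefore inexact.

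Of 10 E2F and DP genes 0 passed in limma, with 4 at an unadjusted p under 0.05, beside 26.9% of all probe sets. The smallest p was that of E2f5, a repressive E2F that pairs with pocket proteins, at 2.94, 3.33 and 3.32 in cyclin D1 glands, against 2.3 and 2.51 in controls (limma adjusted p = 0.0684). Control 1 lay below the olfactory receptor mean, so the difference of 0.79, or 0.88 after renormalization, is inexact. The 6 genes of MuvB, which joins p107 or p130 to make the DREAM repressor, and B-Myb likewise had 0 passing in limma and 2 of 6 at an unadjusted p under 0.05, beside the same 26.9%. Their leading gene Lin54, the DNA-binding subunit, stood at 3.81, 4.87 and 4.18 in cyclin D1 glands, against 2.37 and 2.99 in controls (limma adjusted p = 0.0661). Its control 1 value also lay below the olfactory receptor mean.

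Chromatin partners and assembly factors held 2 genes that rose, both bright, whose differences were near or below 0 after renormalization. Rbbp7, a histone-binding protein that was found through pRB, had 6.45, 6.61 and 6.98 in cyclin D1 glands, against 5.4 and 5.01 in controls (limma adjusted p = 0.0297). It was 1 of 7 measured chromatin partners to rise, and its 1.48 turned to -0.33 after renormalization. Ccnh, the cyclin of the CDK-activating kinase, was the 1 of 5 in its list to rise, by 1.14 (limma adjusted p = 0.0464), and stood at 0.13 after renormalization.

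Of 9 genes of cyclin D turnover 2 rose. Cul1, the scaffold of SCF ubiquitin ligases, had 6.29, 6.38 and 6.12 in cyclin D1 glands, against 4.68 and 5.03 in controls, a rise of 1.41 (limma adjusted p = 0.0208) that was -0.25 after renormalization. Gsk3b, the kinase that marks cyclin D1 for export from the nucleus and degradation, rose by 1.37 (limma adjusted p = 0.0391). It stood at 5.14, 5.57 and 4.85 in cyclin D1 glands, against 3.71 and 3.93 in controls, and differed by 0.39 after renormalization.

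The 3 genes that rose in the last 2 lists, of G1/S and S phase genes, kept differences over 1 after renormalization but lost their calls. The limma adjusted p was then 0.12 for Cks2, 0.0977 for Pola1 and 0.115 for Mcm6. Of 8 G1/S genes 1 rose: Cks2, a small subunit of CDK complexes, at 4.42, 4.93 and 4.71 in cyclin D1 glands, against 3.34 and 2.82 in controls. Its rise of 1.61 (limma adjusted p = 0.0287) was 1.17 after renormalization. Of 15 S phase genes 2 rose, and the median of the 15 was 0.26, or 0.12 with 9 positive after renormalization. Pola1, the catalytic subunit of DNA polymerase alpha, had 4.84, 4.66 and 5.09 in cyclin D1 glands, against 3.3 and 3.05 in controls, a rise of 1.68 (limma adjusted p = 0.0178) that was 1.21 after renormalization. Mcm6, of the replicative helicase, stood at 4.76, 5.57 and 5.29 in cyclin D1 glands, against 2.38 and 3.46 in controls (limma adjusted p = 0.0383). Control 1 lay below the olfactory receptor mean, so its difference of 2.28, or 1.85 after renormalization, is inexact.

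**Figure D4:**
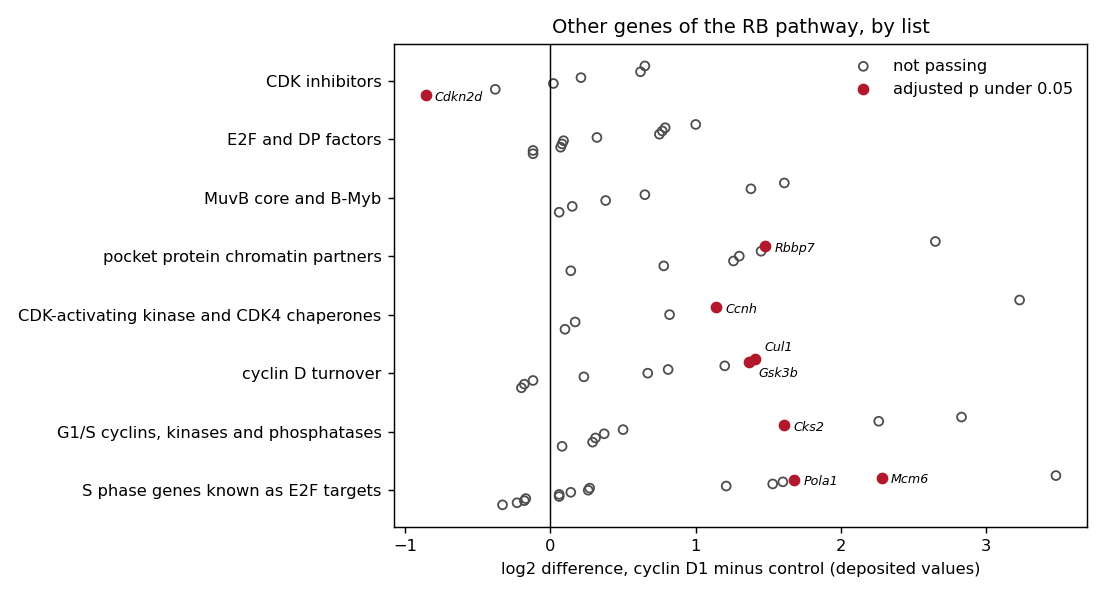
Log2 difference, cyclin D1 minus control, on deposited values (x axis) for 66 measured genes of 8 lists (rows), 1 point per gene; filled red points passed limma at an adjusted p under 0.05. Cdkn2d at -0.86 is the only filled point left of 0, and 7 filled points lie between 1.14 and 2.28.

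Markers of the gland were set beside these values, with levels and calls on the deposited scale. Of all probe sets 5.8% passed as higher on that scale, but 16.7% in decile 9 and 35.8% in the brightest decile. Luminal epithelial genes averaged 4.42 to 4.86 in cyclin D1 glands, against 3.63 and 3.56 in controls, and 2 of 6 rose, Epcam by 2.49 and Cdh1 by 1.37 (1.51 and 0.86 after renormalization). Krt8, Krt18 and Krt19 differed by 1.44, 0.92 and 0.67 without passing, or by 0.13, -0.57 and 0.37 after renormalization. Elf3 went the other way, at -0.36, or -0.22 after renormalization, and did not pass. The 5 measured milk genes averaged 9.98 to 10.68, against 7.12 and 8.2, so mammary tissue was present in both groups, and 3 of them rose. The 4 measured genes of dividing cells averaged 4.25 to 5.47, against 2.82 and 3.21, and 1 rose, Top2a, by 3.25 (2.51 after renormalization). Adipocyte genes averaged 5.01 to 6.3, against 5.49 and 5.89, and 0 of 5 passed. Lymphocyte genes averaged 2.84 to 3.68, against 3.42 and 3.28, and 0 of 6 passed. Macrophage genes averaged 3.42 to 4.58, against 3.2 and 3.08, and 0 of 6 passed. Means for endothelial, fibroblast and brown adipocyte genes overlapped between the groups, with 0 passing in each list, while myoepithelial genes averaged 4.26 to 4.75, against 3.36 and 3.79, and 1 of 6 rose. Skeletal muscle genes averaged 2.55 to 2.68, against 2.91 and 2.94, and red blood cell genes 2.78 to 3.07, against 3.29 and 2.72; 0 passed in either. After renormalization 0 marker genes passed in any list. The median difference of the luminal list was then 0.25, beside 1.14 as deposited, that of the milk list 1.2 beside 2.52 and that of dividing cells 1.12 beside 1.66. The adipocyte median was -1.03 with 0 of 5 positive, beside -0.06 with 2 of 5 as deposited, and the fibroblast median turned to -0.32, beside 0.38. How far these cell types account for the differences of Rb1, Rbl1 and the other genes was not tested.

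Likeness of pattern was measured as the root-mean-square difference of centred log2 values over the 5 arrays, among all 21789 probe sets. Probe sets picked in this way have group differences near that of the gene by construction, so the likeness is no separate result. The closest to Ccnd1 were Lpcat3 at 0.0951, Tbc1d8 at 0.106 and Pdhb at 0.108, with group differences of 0.87, 0.63 and 0.85 that did not pass. After renormalization these were 0.45, -0.26 and -0.32. The closest to Rb1 were Rps28 at 0.121, Tasor at 0.123 and Mpp7 at 0.126, with differences of 2.49, 2.58 and 2.82 that passed on the deposited scale. After renormalization these were 1.16, 1.28 and 2.03 and did not pass.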

How the data were processed

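The deposited values are log2 expression per probe set, which the authors produced by RMA in Affymetrix Expression Console 1.1, per the submitters' processing notes. No background setting is given, nor which arrays were normalized together, and log2 was inferred from the range of 0.83 to 12.9. Without detection p-values, the number of arrays limits the precision. Of 35556 probe sets, 21789 with 1 gene symbol (GEO's platform annotation) were fitted, 1621 with several symbols and 12146 with none were not; 21698 matched RefSeq by Entrez identifier. Comparisons used limma 3.58.1 (R 4.3.3, lmFit and eBayes, 3 residual and 2.35 prior degrees of freedom), with Benjamini-Hochberg adjustment over all probe sets and a threshold of 0.05; the fit was tested on simulated data. Of several probe sets of a list gene, the brightest stood for it. Alternatives were another normalization, feature set, filter, prior or weighting, a replicate block, and each array left out. Members and lists were chosen with earlier results of these data known. Named were the 8 genes, passing genes of each list or its smallest p, and the 3 nearest patterns to Ccnd1 and Rb1; marker genes and others were chosen after their values were seen. Of 71 listed pathway genes, 66 were measured.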

Additional observations from a re-analysis of the deposited data

How the results depend on the processing

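Of all calls 88.5% were higher on the deposited scale and 71.4% after renormalization, with 100 higher and 40 lower. Members called fell to 0 after renormalization or with array weights (309 higher and 4 lower), and pathway genes called to 0 and 2; with all probe sets they were 4. With an intensity trend the counts were 786 higher, 247 lower and 4 pathway genes. Renormalization gave Ccnd1 -0.16, Ccnd2 -0.33 and Cdk4 -0.04, against positive deposited differences. Leaving out 1 array gave 0 to 1614 higher, 0 to 1176 lower, 0 to 1 members and 0 to 11 pathway genes; 0 were higher or lower without cyclin D1 replicate 1, cyclin D1 replicate 2 or control 1, where 3022, 3017 and 2644 positive and 959, 897 and 2826 negative differences had an unadjusted p under 0.05 in limma. Without cyclin D1 replicate 3, 441 were higher and 2 lower. The differences then ran from 0.48 to 1.03 for Ccnd1, -0.06 to 0.28 for Ccnd2, -0.29 to 0.66 for Ccnd3, -0.14 to 0.24 for Cdk4, -0.07 to 0.56 for Cdk6, 2.24 to 3.14 for Rb1, 0.88 to 1.37 for Rbl1 and 0.31 to 0.92 for Rbl2. With renormalized arrays left out in turn, chosen after the data were seen, 0 to 2450 were higher, 0 to 3488 lower, 0 to 3 members and 0 to 25 pathway genes called (595, 957, 0 and 5 without control 1). Without cyclin D1 replicates 1, 2 and 3 Ccnd1 was then -0.19, -0.24 and -0.01 and Ccnd2 -0.27, -0.29 and -0.36. The lowest values were -0.94 for Ccnd1, -0.85 for Ccnd2, -0.57 for Ccnd3, -0.2 for Cdk4, -0.13 for Cdk6 and -0.45 for Rbl2. The 3 members were called without control 2, leaving control 1 alone: Ccnd1 and Ccnd2 lower, and Rb1 higher. The replicate number as a block left 1298 higher, 10 lower and Rb1 called at 2.86. Same-numbered arrays deviated together at r of -0.02 and 0.13. With 2 controls, arrays of unlike number must give the same r with the sign turned (0.02 and -0.13). These r values therefore cannot show whether the numbers mark pairs, and the main fit did not take the numbers as pairs. The causes of these changes were not tested.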

Other observations

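Some genes of the pathway lists had large differences that did not pass, and were picked out after their values were seen. Pcna, the sliding clamp of DNA replication, stood at 8.19, 8.56 and 8.78 in cyclin D1 glands, against 3.81 and 6.24 in controls (limma adjusted p = 0.0535). Ccna2, the cyclin of S phase and G2, stood at 4.86, 6.34 and 6.64, against 2.68 and 3.54 (limma adjusted p = 0.0565). Hsp90aa1, a chaperone whose family works with Cdc37 on CDK4, stood at 10.03, 10.65 and 9.64, against 5.81 and 7.93 (limma adjusted p = 0.0548). In each the groups stood apart, and Pcna and Hsp90aa1 differed between the controls by over 2 on the log2 scale. After renormalization the differences were 2.0 for Pcna, 2.26 for Ccna2 and 1.68 for Hsp90aa1, none of them passing.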
